A study of Mus musculus with 24 samples.

Results

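YAP-TFE3, the fusion protein of a vascular sarcoma, was set directly against YAP5SA, an activated form of full-length YAP, in NIH 3T3, a fibroblast line that was derived from mouse embryos. The comparison asked which expression programs separate the fusion protein from activated YAP. It used 6 of the 24 libraries of the series, 3 for each protein, chosen by their labels, and every gene whose count averaged 5 or more across the 24 libraries, which left 14361 of the 39017 gene identifiers. The gene programs that differed fell into clear groups. Cytosolic ribosomal protein genes were lower in YAP-TFE3 than in YAP5SA in 78 of 79 cases, with a median log2 fold change of -1.73, where 34.5% of all tested genes were lower. Cadherin and protocadherin genes were higher in YAP-TFE3 in 17 of 26 cases, with a median of 1.94, where 36.4% of all tested genes were higher. Matrix glycoprotein genes (29 of 46) and chemokine and cytokine genes (13 of 24) were more often higher in YAP-TFE3 than lower, and genes of amino acid metabolism (19 of 31) and subunits of oxidative phosphorylation (54 of 71) were more often lower. The counts for amino acid metabolism and oxidative phosphorylation were smaller under some other scalings of the libraries, as given below. Targets of YAP differed in both directions, and Ccn1, among the best known of them, was lower in YAP-TFE3.

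All groups used here were NIH 3T3 cells obtained from ATCC, stably transduced with a pBabeNeo retrovirus, selected with G418 as pooled lines and collected after 48 h of confluence. The 3 libraries of a group came from separately transduced lines, and the p-values below measure the spread between such libraries. YAP5SA is YAP in which the serines phosphorylated by the LATS kinases are changed to alanine. YAP-TFE3 joins the N-terminus of YAP, where TEAD binds and which lacks the WW domains, to the C-terminal part of TFE3, which holds an activation domain and the basic helix-loop-helix leucine zipper. Both proteins carried a tandem Flag tag, and cells with the empty vector (EV) are given beside them as the background. The labels name no clone, and the sources used here do not give the species of the cDNAs.

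YAP and its paralog TAZ are transcriptional coactivators at the end of the Hippo pathway. They do not bind DNA themselves and reach their target genes through the TEAD family of transcription factors. In dense cultures the LATS kinases phosphorylate YAP, which is then held in the cytoplasm, so a YAP that LATS cannot phosphorylate remains active at confluence. TFE3 belongs to the MiT/TFE family, whose members bind E-box sequences and are known for driving genes of lysosomes and autophagy. In fibroblasts YAP activity is known for matricellular target genes such as Ccn1 and Ccn2, for proliferation and for contractile gene expression.

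The count total per library was 19777954 to 28170637 in YAP-TFE3, 19055901 to 26390310 in YAP5SA and 19981310 to 22419096 in EV. The composition of the libraries differed. The 50 most abundant genes took 20.11% to 23.05% of the counts in YAP5SA, 17.12% to 18.98% in YAP-TFE3 and 17.6% to 18.14% in EV, and genes of the mitochondrial genome took 2.04% to 2.23%, 3.46% to 4.13% and 3.8% to 4.1%. The TMM factors that correct for composition were 0.7726 to 0.8286 in YAP5SA, against 1.009 to 1.061 in YAP-TFE3 and 1.039 to 1.057 in EV. Levels below are counts per 1000000 (CPM) of the TMM-scaled library size, and fold changes are those of YAP-TFE3 over YAP5SA unless another pair is named. The counts are of genes in bulk RNA, so a level of one gene cannot be compared with that of another without its length. At the limit for testing, Gm7592, Crb2 and Gm15191 were just inside with a mean of 5.0 counts, and Amy1, Ppbp and Mill2 were just outside with 4.958.

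The genes of the constructs were examined as a check of the labels. Yap1 stood at 156, 158 and 171 CPM in the YAP-TFE3 libraries, at 102, 111 and 91.6 CPM in YAP5SA and at 193, 170 and 189 CPM in EV. All YAP-TFE3 libraries lay above all YAP5SA libraries, so the cells given activated YAP had the lowest count of mouse Yap1. The log2 fold change was 0.67 (standard error (SE) 0.08, adjusted p = 3.31e-07, edgeR quasi-likelihood test with Benjamini-Hochberg adjustment). This difference was not called when the trends with GC content and transcript length were taken out (0.14). Tfe3 had 75.7, 80.0 and 83.6 CPM in YAP-TFE3, 168, 161 and 159 CPM in YAP5SA and 84.6, 93.2 and 89.2 CPM in EV. The YAP5SA libraries were the highest without overlap, and the log2 fold change was -1.03 (SE 0.14, adjusted p = 8.55e-07, edgeR). Neither gene was raised in the line that carries its own sequence, and whether reads from the constructs could align to these mouse genes is not given in the sources used here, so the counts do not check the constructs.

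Fibroblast markers were expressed in every library. Of 13 fibroblast markers tested, 11 were higher and 2 lower in YAP-TFE3 than in YAP5SA, and their summed level ran from 43900 to 57000 CPM in YAP-TFE3, from 28700 to 33700 CPM in YAP5SA and from 38700 to 42400 CPM in EV. Over EV, 4 were higher and 1 lower in YAP-TFE3, with a median log2 fold change of -0.02. In YAP5SA 2 were higher and 8 lower than EV, with a median of -1.11. Several markers that define other cell types were below the count minimum. Of the epithelial list only Cdh1 and Krt14 passed the count minimum, and the defining markers Epcam, Krt8 and Krt18 did not; the summed level was 0.637 to 0.971 CPM in YAP-TFE3 and 7.51 to 9.06 CPM in YAP5SA. The endothelial marker Pecam1, the muscle factors Myod1 and Myog, the adipocyte gene Adipoq and the glial factor Sox10 were also below the minimum. Of the endothelial list 4 of 10 genes were tested, with 3 above EV in YAP-TFE3 and 2 above and 1 below EV in YAP5SA. Of the skeletal muscle list 3 of 8 were tested, with 1 above EV in YAP-TFE3 and 3 above EV in YAP5SA. The neural and Schwann cell list had 7 of 8 tested. Over EV 1 of these was higher and 1 lower in YAP-TFE3, and 2 were higher and 2 lower in YAP5SA. Macrophage markers summed to 124 to 251 CPM in YAP-TFE3, 87.1 to 137 CPM in YAP5SA and 6.16 to 7.83 CPM in EV, from 5 of 11 listed genes, while Ptprc, Adgre1, Tyrobp, Spi1 and C1qa were below the minimum. Most of the YAP-TFE3 sum was Lyz2, which is given below. Of the 5 genes, 2 were higher and 3 lower in YAP-TFE3 than in YAP5SA, with a median log2 fold change of -4.26. Smooth muscle markers summed to 1200 to 2010 CPM in YAP-TFE3, 427 to 446 CPM in YAP5SA and 290 to 451 CPM in EV. Most of the YAP-TFE3 sum was Acta2, also given below. Of the 6 smooth muscle markers tested, 2 were higher and 3 lower in YAP-TFE3 than in YAP5SA, with a median log2 fold change of -0.61. The part of other cells in any result was not tested. In bulk RNA, fewer cells that express a gene and less RNA per cell cannot be told apart.

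Of the 14361 genes, 5230 were higher in YAP-TFE3 and 4954 were lower at an adjusted p under 0.05 (edgeR), and 4177 were not called. At least 2-fold differences were found for 3184 higher genes (22.2%) and 2422 lower genes (16.9%). The size of the differences was uneven at the far end, since 616 genes were at least 8-fold higher in YAP-TFE3 (a log2 fold change of at least 3) and 214 were at least 8-fold lower. The 3 libraries of YAP-TFE3 lay wholly above those of YAP5SA for 5555 genes and wholly below for 5241. The median absolute log2 fold change was 0.79 over all genes, with a median SE of 0.17. For comparison, the median absolute value was 0.22 for YAP-TFE3 over EV and 0.81 for YAP5SA over EV. Against EV, 1523 genes (10.6%) were higher and 680 (4.74%) lower in YAP-TFE3, and 5208 (36.3%) were higher and 5012 (34.9%) lower in YAP5SA. These 3 comparisons share libraries and are given side by side as values only. The counts of list members called higher or lower in YAP-TFE3 than in YAP5SA stand below against 36.4% and 34.5% of all genes, and a share near these is no result about the list. Counts of list members called against EV stand in the same way against the shares of all genes over EV just given.

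The split between higher and lower genes rested on how composition was corrected. In the TMM fit 51.4% of the called genes were higher in YAP-TFE3. With library totals alone the share was 67.6% (7066 higher and 3386 lower) and the median log2 fold change over all genes moved from 0.05 to 0.41. When the trends with GC content and transcript length were removed the share was 43.7% (4466 higher and 5759 lower) and the median was -0.11. The fold change moved with gene properties. From the fifth of genes with the shortest transcripts to the fifth with the longest, the median log2 fold change ran from -0.37 through -0.09, 0.02 and 0.14 to 0.45, and from the lowest to the highest GC content it ran from 0.64 through 0.17, -0.02 and -0.22 to -0.34. Over EV, the medians by length went from 0.38 to -0.34 in YAP5SA and from -0.06 to 0.04 in YAP-TFE3. What part of any single gene's difference goes with length or GC content was not tested gene by gene. With both trends taken out the medians of the 33 gene lists described below moved by -0.39 to 0.27, and those that changed sign or moved by at least 0.25 (7 lists) are given with their list. With library totals alone each of the 33 medians was higher by 0.35 to 0.37. List counts given below for library totals stand against 7066 higher and 3386 lower of 14361 genes, and list medians against 0.41. Those given with length and GC content taken out stand against 4466 higher and 5759 lower genes and a median of -0.11.

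**Figure D1:**
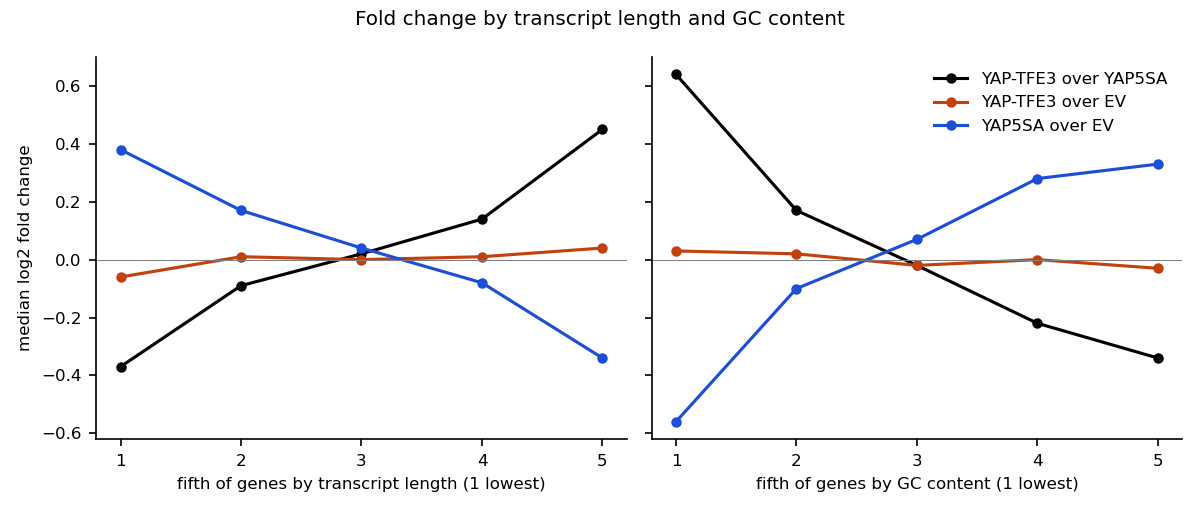
Median log2 fold change (vertical axis) in 5 bins of equal gene number ordered by transcript length (left) and by GC content (right), for YAP-TFE3 over YAP5SA, YAP-TFE3 over EV and YAP5SA over EV. The direct comparison rises from -0.37 to 0.45 with length and falls from 0.64 to -0.34 with GC content, the YAP5SA line runs the opposite way, and the YAP-TFE3 line stays between -0.06 and 0.04.

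YAP-TFE3 replicate 1 stood apart from the other libraries of its group for many of the genes that were high in YAP-TFE3. Without it, 847 genes were higher and 286 lower in YAP-TFE3 than in EV, against 1523 and 680 with it. The direct comparison depended less on it, and leaving out any of the 6 libraries gave 4895 to 5058 higher and 4630 to 4783 lower genes. Genes for which this library was far above the other two are named with all 3 values below.

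Canonical YAP/TAZ-TEAD targets differed in both directions, and the largest differences were toward YAP5SA. Of 20 targets tested, 7 were higher in YAP-TFE3, 10 were lower and 3 were not called, with a median log2 fold change of -0.46 (-0.10 with library totals alone). The higher share, 35.0%, was near the 36.4% of all genes, and the lower share was above the 34.5% of all genes. The promoter windows of 4 genes that the results below turn on are shown to illustrate a contrast: Ccn1 and Amotl2 were higher in YAP5SA, Ankrd1 was about as high with both proteins, and Acta2 was higher in YAP-TFE3. Each window is the 250 bases before the transcription start from RefSeq on the build GRCm38.p6, 5′ to 3′ on the strand of the gene, with matches to the core letters of the TEAD motif (GGAATG or its reverse complement CATTCC) in capitals. Only windows that held such a match were printed, so the presence of a match in each was fixed by that choice. The windows lie at chr3:145649986-145650235 (minus strand, Ccn1), chr9:102717554-102717803 (plus strand, Amotl2), chr19:36119845-36120094 (minus strand, Ankrd1) and chr19:34255374-34255623 (minus strand, Acta2). The Amotl2 window lies inside the gene as annotated, which begins at 102716672.
Ccn1: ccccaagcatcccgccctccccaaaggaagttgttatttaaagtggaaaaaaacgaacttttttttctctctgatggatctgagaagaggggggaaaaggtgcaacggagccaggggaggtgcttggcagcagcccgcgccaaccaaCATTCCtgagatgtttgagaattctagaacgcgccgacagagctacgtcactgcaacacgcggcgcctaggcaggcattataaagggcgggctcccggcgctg
Amotl2: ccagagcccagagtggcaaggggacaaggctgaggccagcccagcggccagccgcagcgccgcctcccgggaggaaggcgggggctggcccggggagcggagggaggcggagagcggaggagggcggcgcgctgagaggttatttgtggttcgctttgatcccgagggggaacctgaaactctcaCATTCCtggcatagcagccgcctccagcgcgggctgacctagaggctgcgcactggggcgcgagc
Ankrd1: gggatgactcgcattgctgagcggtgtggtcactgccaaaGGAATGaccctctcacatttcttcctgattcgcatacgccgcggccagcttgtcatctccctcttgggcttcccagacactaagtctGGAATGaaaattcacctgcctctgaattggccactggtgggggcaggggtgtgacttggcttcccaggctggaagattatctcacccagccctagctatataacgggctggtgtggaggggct
Acta2: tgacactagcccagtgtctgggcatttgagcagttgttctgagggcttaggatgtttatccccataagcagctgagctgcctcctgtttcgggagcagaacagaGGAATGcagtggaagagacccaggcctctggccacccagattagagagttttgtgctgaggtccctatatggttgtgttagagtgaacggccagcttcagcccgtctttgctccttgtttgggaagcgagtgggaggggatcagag

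The match began 103 bases before the start in Ccn1, 65 in Amotl2 and 146 in Acta2, and the matches in Ankrd1 began 210 and 123 bases before it. Such a match is a description of the letters and not a shown binding site. The TEAD core was present, on either strand, in 6 of the 13 targets with a promoter in the table (46.2%) and in 13 of 27 genes of the Hippo pathway list (48.1%), against 13.0% of the 10202 tested genes with a promoter and 14.4% of all 27025 genes with a promoter. A gene was counted if any of its promoter windows held the letters, so genes with more windows had more opportunities. Among genes with a promoter, the TEAD core was found for 13.5% of those higher in YAP-TFE3, 12.3% of those lower and 13.2% of those not called. These 3 shares were close to each other.

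Ccn1 (ENSMUSG00000028195, 3:145646976-145649981), which encodes a secreted matricellular protein and is among the best known YAP targets, stood at 204, 206 and 148 CPM in YAP-TFE3, at 2460, 1730 and 2190 CPM in YAP5SA and at 42.9, 63.8 and 61.5 CPM in EV. The groups did not overlap, with YAP5SA the highest and EV the lowest. The direct log2 fold change was -3.52 (SE 0.39, adjusted p = 6.64e-08, edgeR), while each protein was above EV, by 1.73 for YAP-TFE3 (adjusted p = 0.00206, edgeR) and 5.25 for YAP5SA (adjusted p = 5.36e-10, edgeR). Ccn2, its close relative, had 39.5, 37.7 and 33.1 CPM in YAP-TFE3, 426, 174 and 399 CPM in YAP5SA and 14.6, 18.3 and 19.9 CPM in EV. YAP5SA replicate 2 was the lowest of its group and still above every YAP-TFE3 library. Its log2 fold change was -3.18 (SE 0.41, adjusted p = 4.62e-07, edgeR), and against EV Ccn2 was not called in YAP-TFE3 (1.06, adjusted p = 0.0728, edgeR). Ccn2 overlaps Gm15270, so its reads may be shared.

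Amotl2, an angiomotin that restrains YAP and is itself a YAP target, had 352, 285 and 282 CPM in YAP-TFE3 against 986, 829 and 967 CPM in YAP5SA and 182, 240 and 231 CPM in EV. Again no library of a group overlapped another group, and the log2 fold change was -1.60 (SE 0.16, adjusted p = 1.12e-08, edgeR). Axl, a receptor tyrosine kinase, differed less, at 949 ± 43.8 CPM (SD, n = 3) in YAP-TFE3 and 1630 ± 139 CPM in YAP5SA (log2 fold change -0.78, adjusted p = 1.77e-05, edgeR). Ankrd1, a titin-associated repeat protein, did not follow this order. It stood at 204, 113 and 108 CPM in YAP-TFE3 and at 204, 162 and 171 CPM in YAP5SA, both above the 15.7, 31.5 and 18.6 CPM of EV. The 2 proteins overlapped, the direct log2 fold change was -0.34 (SE 0.30, adjusted p = 0.321, edgeR), and over EV it was 2.69 (adjusted p = 4.36e-06) for YAP-TFE3 and 3.03 (adjusted p = 3.99e-08) for YAP5SA. Thbs1, which encodes thrombospondin, behaved in the same way, with 2040, 1640 and 1290 CPM in YAP-TFE3, 2580, 1610 and 2030 CPM in YAP5SA and 407, 869 and 606 CPM in EV. Its direct log2 fold change was -0.33 (SE 0.30, adjusted p = 0.342, edgeR).

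Some listed targets were higher in YAP-TFE3. F3, which encodes tissue factor, stood at 467, 385 and 383 CPM in YAP-TFE3 and at 166, 191 and 163 CPM in YAP5SA, with EV at 366, 402 and 358 CPM. The YAP-TFE3 level was near that of EV and the YAP5SA level below it, with a direct log2 fold change of 1.25 (SE 0.19, adjusted p = 5.64e-06, edgeR). Fjx1, a Golgi kinase-like protein, was at 4.99 ± 0.539 CPM in YAP-TFE3, 1.22 ± 0.668 CPM in YAP5SA and 9.98 ± 1.79 CPM in EV (SD, n = 3), lower than EV with either protein. Across the list 6 members were higher and 3 lower than EV in YAP-TFE3, and 11 higher and 5 lower in YAP5SA.

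**Figure D2:**
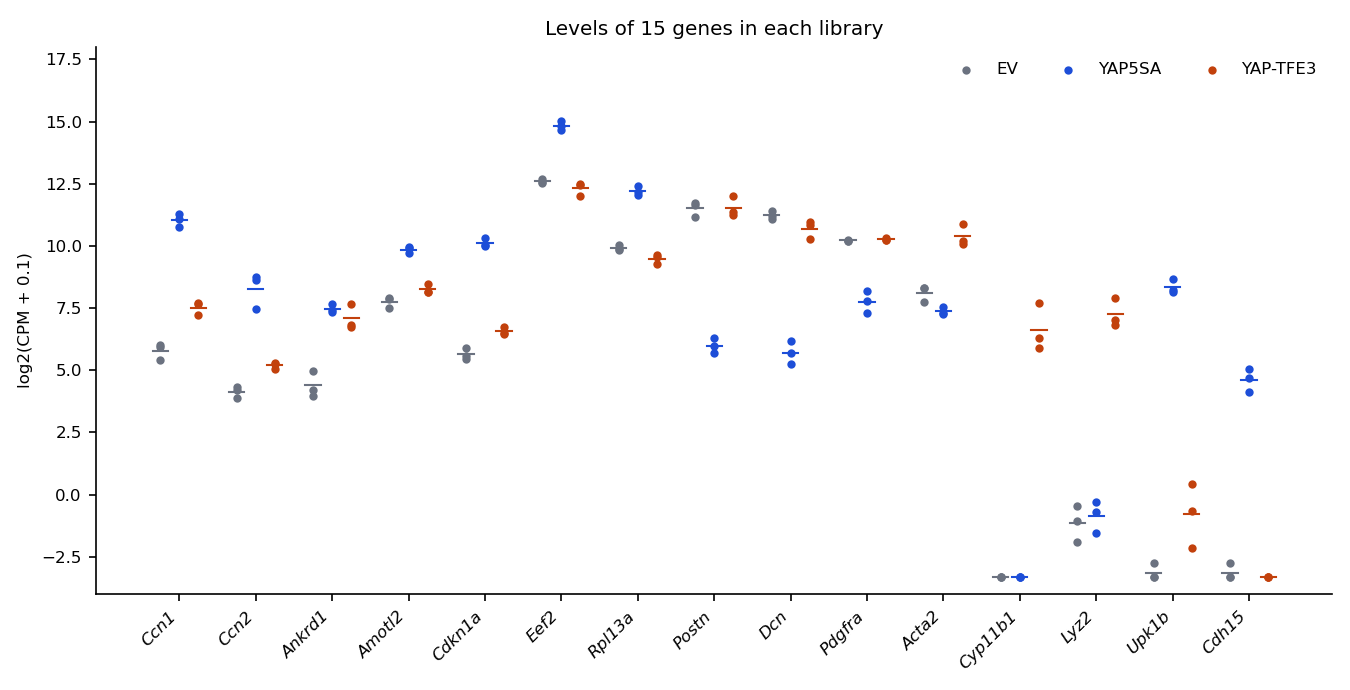
Level of 15 genes in each library as log2(CPM + 0.1) (vertical axis), for EV, YAP5SA and YAP-TFE3, with a line at the mean of the 3 libraries. Ccn1, Ccn2, Amotl2, Cdkn1a, Eef2 and Rpl13a are highest in YAP5SA, the Ankrd1 points of both proteins overlap, Postn, Dcn and Pdgfra are low in YAP5SA alone, and Cyp11b1, Lyz2, Upk1b and Cdh15 are each high with a single protein.

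Components of the Hippo pathway differed in both directions. Of 33 members tested, 13 were higher and 18 lower in YAP-TFE3, with a median log2 fold change of -0.27 that changed sign with library totals alone (0.09). Lats1, a kinase that phosphorylates YAP, stood at 98.3, 98.7 and 86.5 CPM in YAP-TFE3, 34.4, 38.7 and 34.5 CPM in YAP5SA and 80.1, 95.5 and 86.6 CPM in EV. YAP-TFE3 overlapped EV and was clear of YAP5SA, with a log2 fold change of 1.40 (SE 0.13, adjusted p = 6.82e-09, edgeR). Its paralog Lats2, also a target of YAP, went the other way with 102, 79.9 and 83.4 CPM in YAP-TFE3, 167, 144 and 134 CPM in YAP5SA and 52.0, 57.1 and 59.2 CPM in EV (-0.75, SE 0.14, adjusted p = 4.11e-05, edgeR). The 2 LATS kinases thus differed in opposite directions. Mob1b, a coactivator of LATS, had 50.3 ± 5.2 CPM in YAP-TFE3 and 16.5 ± 0.767 CPM in YAP5SA (log2 fold change 1.61, adjusted p = 3.24e-07, edgeR). Wwc1, the scaffold protein KIBRA, had 17.7 ± 2.26 CPM in YAP-TFE3 and 75.6 ± 10.8 CPM in YAP5SA (-2.10, adjusted p = 8.7e-09, edgeR).

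The protein synthesis program was the most uniform difference of the 33 lists examined. Every cytosolic ribosomal protein gene except Rpl24 was lower in YAP-TFE3, 75 of them at least 2-fold. In YAP5SA 77 of the 79 genes were above EV, with a median log2 fold change of 1.36, while in YAP-TFE3 5 were below EV, with a median of -0.40, and none was above (edgeR; 0 also by DESeq2 and 0 at an unadjusted p under 0.05). The summed level was 37900, 47300 and 51400 CPM in YAP-TFE3, 136000, 185000 and 147000 CPM in YAP5SA and 65300, 54700 and 61600 CPM in EV. YAP5SA was above the other groups by far, and the YAP-TFE3 libraries were all below those of EV. Rpl24 was at 0.440 CPM in YAP-TFE3 and 0.143 CPM in YAP5SA under its deposited identifier, far under the rest of the family. Genes with many processed pseudogenes such as these can share reads with their copies, and which of the described routes, genome alignment or assignment to transcripts, gave the deposited counts is not stated.

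Rplp0, a protein of the ribosomal stalk, stood at 1830, 2470 and 2540 CPM in YAP-TFE3, 7720, 9220 and 8220 CPM in YAP5SA and 3210, 2720 and 2960 CPM in EV. It was lowest in YAP-TFE3 and highest in YAP5SA, with a log2 fold change of -1.88 (SE 0.19, adjusted p = 1.28e-08, edgeR). Rps6, the target of S6 kinase, was at 1520 ± 264 CPM in YAP-TFE3 and 6700 ± 1320 CPM in YAP5SA (-2.14, adjusted p = 2.54e-09, edgeR). Rpl13a had the largest difference of the list, at 721 ± 87.0 CPM against 4760 ± 639 CPM (-2.72, adjusted p = 1.49e-10, edgeR), and it hosts small nucleolar RNAs whose reads could be shared. The elongation factors followed. Eef2 (ENSMUSG00000034994, 10:81176631-81182498), which moves the ribosome along the mRNA, had 4170, 5780 and 5560 CPM in YAP-TFE3, 26200, 33600 and 28600 CPM in YAP5SA and 6640, 5890 and 6080 CPM in EV. YAP-TFE3 was below or near EV and YAP5SA far above both (log2 fold change -2.51, SE 0.23, adjusted p = 4.52e-09, edgeR). Eef1a1, which delivers aminoacyl-tRNAs, had 10900 ± 929 CPM and 31200 ± 5750 CPM (-1.52, adjusted p = 8.64e-07, edgeR), and Rack1, a ribosome-bound scaffold, 1640 ± 242 CPM and 6960 ± 1010 CPM (-2.09, adjusted p = 2.41e-08, edgeR).

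Ribosomal protein transcripts are short, with a median of 1059 bases against 3118 over all tested genes, and shorter transcripts were lower in YAP-TFE3 in general. With the trends in length and GC content taken out the list still had 1 member higher and 77 lower, and its median was -1.46. With library totals alone the median was -1.36.

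**Figure D3:**
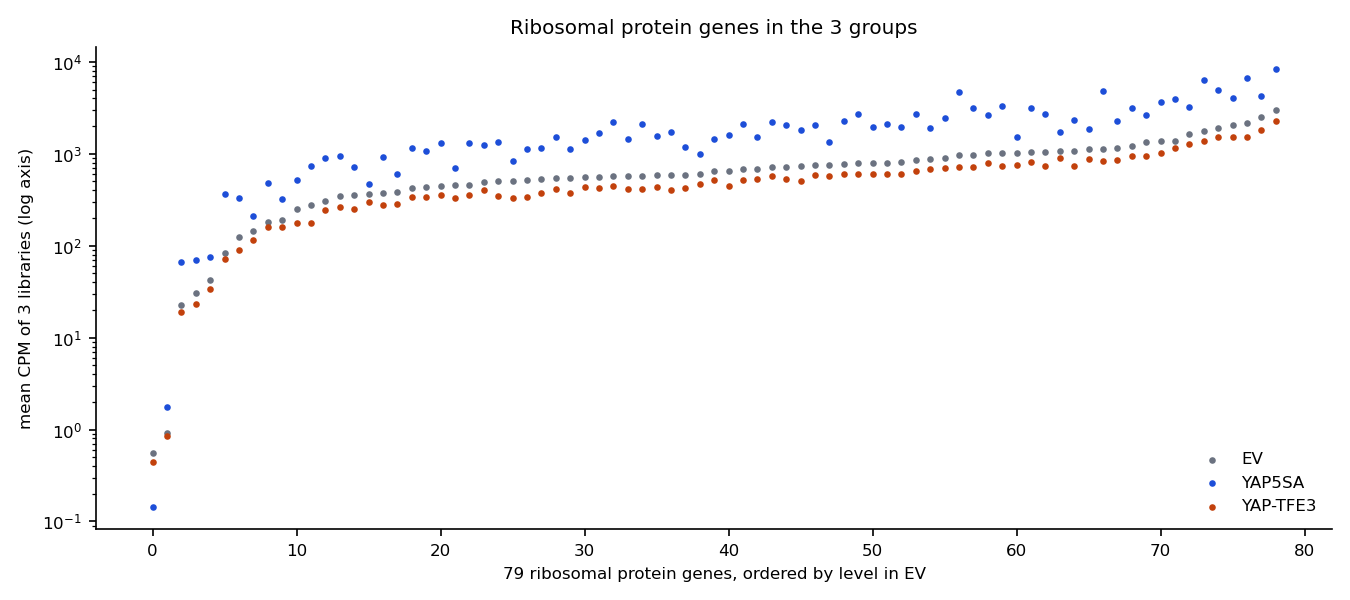
Mean level of the 79 cytosolic ribosomal protein genes in CPM (vertical log axis) in EV, YAP5SA and YAP-TFE3, ordered along the horizontal axis by their level in EV. The YAP5SA points lie above the others for every gene but the lowest, Rpl24, and the YAP-TFE3 points lie just under those of EV.

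Nuclear genes for subunits of oxidative phosphorylation went the same way with a smaller size. Of 71 tested, 9 were higher in YAP-TFE3, 54 were lower and 8 were not called, with a median log2 fold change of -0.66. Over EV, 52 were higher and 8 lower in YAP5SA, and 1 was higher and none lower in YAP-TFE3 (edgeR; 0 lower also by DESeq2 and at an unadjusted p under 0.05). Atp5b, the catalytic subunit of ATP synthase, stood at 1080, 1030 and 1110 CPM in YAP-TFE3, 2290, 2230 and 2240 CPM in YAP5SA and 943, 1050 and 944 CPM in EV. YAP-TFE3 overlapped EV and YAP5SA was above both (log2 fold change -1.07, SE 0.14, adjusted p = 3.87e-07, edgeR). Ndufa9 of complex I (81.2 ± 2.48 against 182 ± 7.43 CPM; -1.16, adjusted p = 8.98e-09, edgeR) was lower as well. Ndufa5, an accessory subunit, was among the exceptions, at 30.7 ± 2.95 CPM in YAP-TFE3 and 11.2 ± 2.42 CPM in YAP5SA (1.45, adjusted p = 1.16e-08, edgeR). The median transcript of this list has 1046 bases. The count was 10 higher and 47 lower with a median of -0.41 when length and GC content were taken out, and 14 higher and 38 lower with a median of -0.30 with library totals alone.

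The protein genes of the mitochondrial genome, counted after their values were seen, were mostly higher in YAP-TFE3. Of 13 tested, 11 were higher and none lower (edgeR; 0 lower at an unadjusted p under 0.05 and 1 by DESeq2), with a median log2 fold change of 1.24. With length and GC content taken out 5 were higher and 1 lower with a median of 0.27. Over EV, 11 were lower and 1 higher in YAP5SA, with a median of -1.36. mt-Cytb, the cytochrome b of complex III, stood at 7540, 6670 and 5260 CPM in YAP-TFE3, 2520, 2340 and 1820 CPM in YAP5SA and 6200, 7220 and 7090 CPM in EV. Here YAP5SA was the low group and YAP-TFE3 overlapped EV (log2 fold change 1.55, SE 0.18, adjusted p = 1.23e-07, edgeR). mt-Nd5, a complex I subunit, had 4400, 4030 and 3660 CPM in YAP-TFE3, 1170, 1220 and 1050 CPM in YAP5SA and 4090, 4730 and 4260 CPM in EV (1.81, SE 0.15, adjusted p = 7.98e-10, edgeR). These genes are part of the share of mitochondrial counts that separated the libraries as a whole.

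Genes of amino acid synthesis and transport, many of them targets of the stress factor ATF4, were mostly higher in YAP5SA. Of 31 tested, 6 were higher and 19 lower in YAP-TFE3, with a median log2 fold change of -0.64 (11 lower and a median of -0.29 with library totals alone). Over EV the list had 23 higher and 5 lower members in YAP5SA and 6 higher and none lower in YAP-TFE3 (edgeR; 0 lower by DESeq2 and 1 at an unadjusted p under 0.05). Asns, asparagine synthetase, had 118, 106 and 94.3 CPM in YAP-TFE3, 601, 481 and 626 CPM in YAP5SA and 70.6, 125 and 83.3 CPM in EV. YAP-TFE3 overlapped EV and both were below YAP5SA (log2 fold change -2.42, SE 0.21, adjusted p = 2.1e-09, edgeR). Chac1, which degrades glutathione, had 47.2, 32.8 and 31.9 CPM in YAP-TFE3, 254, 204 and 208 CPM in YAP5SA and 9.37, 12.4 and 13.2 CPM in EV. Here the 3 groups were separate, with YAP-TFE3 in the middle (-2.57, SE 0.21, adjusted p = 5.33e-10, edgeR). Trib3, a pseudokinase induced by ATF4, overlapped between the proteins at 31.8 ± 10.7 and 42.3 ± 5.25 CPM (-0.41, adjusted p = 0.259, edgeR), and both were above the 12.1 ± 7.11 CPM of EV. Atf5 (280 ± 28.8 against 74.9 ± 7.65 CPM; 1.90, adjusted p = 3.41e-10, edgeR) and the glutamine transporter Slc38a2 (739 ± 55.3 against 215 ± 24.9 CPM; 1.78, adjusted p = 8.04e-10, edgeR) were the members with the largest differences the other way.

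Antioxidant targets of NRF2 had 8 higher and 17 lower members of 34 in YAP-TFE3, with a median log2 fold change of -0.30 that turned to 0.06 with library totals alone. Gsta1, a glutathione transferase with close paralogs that may share reads, was at 0.201, 0.201 and 0.212 CPM in YAP-TFE3, 20.7, 22.6 and 11.4 CPM in YAP5SA and 0.718, 0.382 and 0.752 CPM in EV. It was near the floor without YAP5SA (-6.45, SE 0.57, adjusted p = 2.47e-09, edgeR). Taldo1 of the pentose phosphate pathway was at 103 ± 10.8 CPM in YAP-TFE3 and 406 ± 32.9 CPM in YAP5SA (-1.97, adjusted p = 3e-09, edgeR). Gstm1, also a glutathione transferase, was higher in YAP-TFE3 at 257 ± 47.5 CPM against 65.2 ± 3.69 CPM (1.98, adjusted p = 2.11e-07, edgeR). Hmox1, a classical target, was not called (138 ± 24.8 against 156 ± 17.5 CPM; -0.18, adjusted p = 0.528, edgeR). The glycolysis and hypoxia list was similar, with 4 higher and 14 lower of 33 and a median of -0.34 (0.02 with library totals alone). In it the prolyl hydroxylase Egln3 (7.57 ± 0.518 against 38.8 ± 4.12 CPM; -2.35, adjusted p = 6.67e-10, edgeR) was lower in YAP-TFE3, and the pyruvate dehydrogenase kinase Pdk1 (46.1, 52.8 and 51 against 12.4, 10.8 and 11.3 CPM; 2.12, adjusted p = 1.55e-10, edgeR) was higher.

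The extracellular matrix program was mostly higher in YAP-TFE3. Of 46 matrix glycoproteins and proteoglycans tested, 29 were higher and 7 lower, with a median log2 fold change of 1.04, and 23 were at least 2-fold higher. Over EV, 18 of them were higher and 1 lower in YAP-TFE3, and 12 were higher and 25 lower in YAP5SA. Collagens had 14 higher and 4 lower of 24 (median 0.86), and matrix proteases, inhibitors and lysyl oxidases 19 higher and 5 lower of 31 (median 0.97). The medians of these lists kept their sign under every scaling tried.

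Postn (ENSMUSG00000027750, 3:54361109-54391037), which encodes the matricellular protein periostin, stood at 4090, 2620 and 2440 CPM in YAP-TFE3, 52.0, 78.1 and 62.7 CPM in YAP5SA and 2320, 3430 and 3220 CPM in EV. It was low in YAP5SA alone, and YAP-TFE3 overlapped EV. The direct log2 fold change was 5.57 (SE 0.49, adjusted p = 1.99e-09, edgeR). Dcn, the small proteoglycan decorin, had 2000, 1230 and 1840 CPM in YAP-TFE3, 38.1, 71.8 and 52.3 CPM in YAP5SA and 2180, 2730 and 2390 CPM in EV. YAP-TFE3 was slightly under EV, not called (-0.53, adjusted p = 0.501, edgeR), and far above YAP5SA (4.96, SE 0.53, adjusted p = 3.37e-08, edgeR). Lumican (Lum), of the same family, was at 45.6 ± 6.83 CPM in YAP-TFE3 and 3.31 ± 1.05 CPM in YAP5SA (3.79, adjusted p = 4.12e-07, edgeR). Fn1, fibronectin, was among the largest differences in absolute level at 17300 ± 1450 CPM against 8070 ± 1490 CPM (1.10, adjusted p = 1.78e-05, edgeR).

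Ogn, the proteoglycan osteoglycin, had 1960, 1100 and 708 CPM in YAP-TFE3, 18.5, 28.9 and 21.5 CPM in YAP5SA and 295, 683 and 377 CPM in EV. It was above EV in YAP-TFE3 and below EV in YAP5SA, and replicate 1 of YAP-TFE3 was the highest (direct log2 fold change 5.77, SE 0.57, adjusted p = 1.11e-08, edgeR). Eln, which encodes elastin, had 48, 60 and 42 counts in the YAP-TFE3 libraries, 0 in each YAP5SA library and 8, 2 and 3 in EV, so that it was at least 12.6-fold higher in YAP-TFE3 with a floor of 3 counts in each library. Fras1, a basement membrane protein, had 327, 192 and 95 counts in YAP-TFE3, 8, 13 and 29 in YAP5SA and 0 in each EV library. Both proteins were above EV, by at least 66.7-fold and at least 7.17-fold, and YAP-TFE3 was above YAP5SA (log2 fold change 3.26, SE 0.57, adjusted p = 3.97e-05, edgeR). Lama5, a laminin chain of basement membranes, was an exception in the list. It stood at 23.1, 13.4 and 6.84 CPM in YAP-TFE3, 92.4, 73.0 and 55.4 CPM in YAP5SA and 0.760, 0.668 and 0.664 CPM in EV. Both proteins were above EV and YAP5SA was the higher (-2.36, SE 0.29, adjusted p = 3.09e-07, edgeR).

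Among collagens, Col1a1 stood at 6340, 5130 and 4220 CPM in YAP-TFE3, 2630, 2940 and 2690 CPM in YAP5SA and 2380, 2890 and 2730 CPM in EV. This main fibrillar collagen was thus above EV in YAP-TFE3 (0.97, adjusted p = 0.00974, edgeR) and at the EV level in YAP5SA (0.05, adjusted p = 0.875, edgeR), with a direct log2 fold change of 0.93 (SE 0.25, adjusted p = 0.0025, edgeR). Its partner chain Col1a2 had the same pattern at 14100 ± 3290, 8510 ± 211 and 8010 ± 616 CPM (direct log2 fold change 0.73, adjusted p = 0.00261, edgeR). Col27a1, a collagen of cartilage, was instead low in YAP5SA alone, at 41.3 ± 4.53 CPM in YAP-TFE3, 3.59 ± 0.906 CPM in YAP5SA and 40.1 ± 8.52 CPM in EV (3.51, adjusted p = 1.12e-10, edgeR). Col16a1, associated with fibrils, was low there as well (337 ± 33.9 against 63.6 ± 8.27 CPM; 2.41, adjusted p = 8.42e-10, edgeR). Col5a3 was among the lower members (16.7 ± 3.30 against 42.1 ± 11.4 CPM; -1.33, adjusted p = 0.000142, edgeR). Of the 14 collagens higher in YAP-TFE3 than in YAP5SA, 7 were above EV in YAP-TFE3 and 7 were below EV in YAP5SA, with 1 counted in both and 1 in neither.

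Lox, the lysyl oxidase that cross-links collagen and elastin, had 5260, 4860 and 4520 CPM in YAP-TFE3, 1550, 2160 and 1740 CPM in YAP5SA and 2900, 3830 and 2900 CPM in EV. YAP-TFE3 was above EV without overlap but was not called against it (0.60, adjusted p = 0.0882, edgeR), and the direct log2 fold change was 1.42 (SE 0.24, adjusted p = 1.56e-05, edgeR). Mmp9, a gelatinase, had 11.4, 31.9 and 24.8 CPM in YAP-TFE3, 0.103, 0.442 and 0.253 CPM in YAP5SA and 20.8, 23.1 and 14.4 CPM in EV. It was near the detection limit in YAP5SA alone (6.38, SE 0.72, adjusted p = 8.13e-08, edgeR). Mmp14, a membrane-bound collagenase, was lower than in EV with either protein and less so in YAP-TFE3 (1100 ± 175, 558 ± 31.6 and 1790 ± 141 CPM in YAP-TFE3, YAP5SA and EV; direct log2 fold change 0.97, adjusted p = 1.14e-05, edgeR). Some members went the other way. The urokinase receptor Plaur (14.6 ± 1.62 against 79.7 ± 21 CPM; -2.45, adjusted p = 1.44e-08, edgeR) and the metalloprotease inhibitor Timp1 (71.3 ± 9.34 against 164 ± 7.03 CPM; -1.21, adjusted p = 2e-05, edgeR) were lower in YAP-TFE3.

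**Figure D4:**
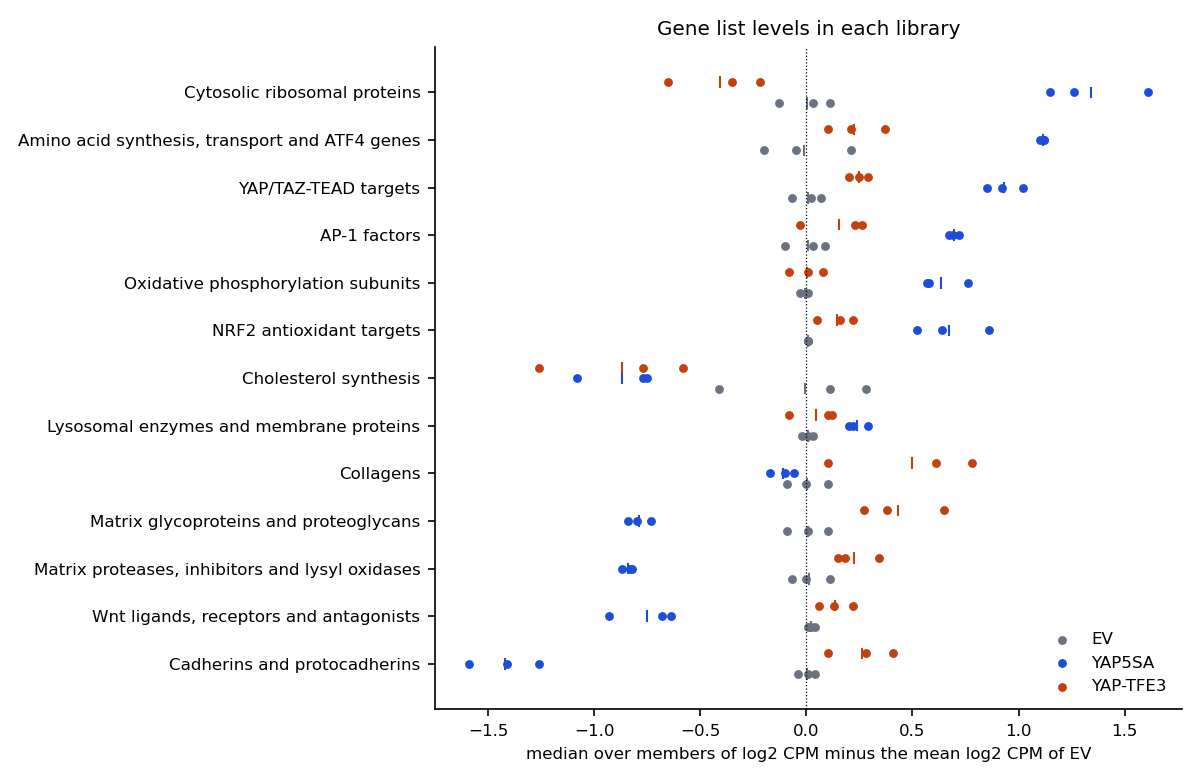
For 13 gene lists (rows), the median over members of the log2 level minus its mean in EV (horizontal axis), with 1 point per library of EV, YAP5SA and YAP-TFE3 and a tick at the group mean. Ribosomal protein genes lie between 1.15 and 1.61 in YAP5SA and between -0.65 and -0.22 in YAP-TFE3, cadherins lie between -1.59 and -1.26 in YAP5SA and between 0.10 and 0.41 in YAP-TFE3, and cholesterol synthesis genes are below EV with both proteins.

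Growth factors and their receptors had 16 higher and 9 lower members of 31, with a median log2 fold change of 0.44. Pdgfra, the PDGF receptor alpha, stood at 1200, 1260 and 1220 CPM in YAP-TFE3, 156, 291 and 220 CPM in YAP5SA and 1210, 1190 and 1180 CPM in EV. YAP-TFE3 and EV differed by less than their spread, and YAP5SA was well below both (2.46, SE 0.30, adjusted p = 1.87e-07, edgeR). Pdgfrb was at 441 ± 32.3 CPM in YAP-TFE3 and 142 ± 4.40 CPM in YAP5SA (1.63, adjusted p = 3.41e-10, edgeR). The ligand Fgf7, also called keratinocyte growth factor, had 191, 199 and 145 CPM in YAP-TFE3, 12.1, 17.5 and 16.7 CPM in YAP5SA and 98.4, 154 and 132 CPM in EV, and was low in YAP5SA without overlap (3.53, SE 0.25, adjusted p = 1.03e-10, edgeR). Igfbp5, a binding protein for insulin-like growth factors, had 580, 610 and 267 counts in YAP-TFE3, a single count in YAP5SA (1, 0 and 0) and 103, 258 and 145 counts in EV, which is a ratio of 1110 between the proteins with a 95% counting interval of 198 to 43700. Igf2 was the reverse. This fetal growth factor had 76.7, 46.6 and 38.9 CPM in YAP-TFE3, 1110, 1330 and 970 CPM in YAP5SA and 100, 284 and 169 CPM in EV, so that it was below EV in YAP-TFE3 (-1.77, adjusted p = 0.0156, edgeR) and above EV in YAP5SA (2.62, adjusted p = 8.02e-05, edgeR), with a direct log2 fold change of -4.39 (SE 0.55, adjusted p = 3.05e-07, edgeR). It overlaps Igf2os and Mir483, with which reads may be shared.

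Cadherins, the adhesion molecules of cell contacts, had the highest median of the 33 lists. Of 26 tested, 17 were higher in YAP-TFE3 (16 of them at least 2-fold), 5 were lower and 4 were not called. Over EV, 7 were higher and 3 lower in YAP-TFE3 and 8 higher and 15 lower in YAP5SA. Cdh11, the cadherin of mesenchymal cells, stood at 485, 400 and 380 CPM in YAP-TFE3, 55.8, 75.9 and 73.5 CPM in YAP5SA and 259, 364 and 297 CPM in EV. YAP5SA was the low group (2.62, SE 0.20, adjusted p = 3.64e-10, edgeR). Pcdh7 (39.3 ± 10.4 against 2.88 ± 0.396 CPM; 3.76, adjusted p = 1.02e-11, edgeR) and Pcdhb21 (6.13 ± 1.08 against 0.476 ± 0.141 CPM; 3.66, adjusted p = 8.15e-11, edgeR) were higher too, the latter within a cluster of near-identical genes whose reads may be split. N-cadherin (Cdh2) was above EV with both proteins and was not called between them (160 ± 28.8, 186 ± 24.7 and 89.0 ± 12.8 CPM in YAP-TFE3, YAP5SA and EV; direct log2 fold change -0.22, adjusted p = 0.208, edgeR). Cdh15, the cadherin of muscle cells, had 648, 526 and 272 counts in the YAP5SA libraries, 0 in each YAP-TFE3 library and 0, 1 and 0 in EV, at least 202-fold higher in YAP5SA. The cadherin transcripts are long, with a median of 5005 bases, and have a median GC content of 45.5% against 49.6% over all genes. The median log2 fold change was 1.55 with both trends taken out and 2.30 with library totals alone.

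Wnt signalling genes had 15 higher and 6 lower of 26 in YAP-TFE3, with a median of 1.00 that stayed positive in every scaling (0.70 with length and GC content taken out). Sfrp1, a secreted Wnt antagonist, had 15.1, 13.1 and 16.7 CPM in YAP-TFE3, 0.462, 1.13 and 0.443 CPM in YAP5SA and 20.6, 40.0 and 21.9 CPM in EV. It was below EV with both proteins and far lower in YAP5SA (4.42, SE 0.35, adjusted p = 4.93e-10, edgeR). The receptor Fzd4 was above EV in YAP-TFE3 and below it in YAP5SA (30.8 ± 8.37, 2.55 ± 0.701 and 12.1 ± 2.11 CPM; direct log2 fold change 3.58, adjusted p = 1.95e-09, edgeR). Axin2, a direct target of beta-catenin, was at 0.807 ± 0.0397, 0.0765 ± 0.0673 and 1.93 ± 0.389 CPM (3.39, adjusted p = 3.2e-06, edgeR), below EV with each protein. The ligands named here went the other way. Wnt7b had 434, 284 and 178 counts in YAP5SA, a single count in YAP-TFE3 and 0 in EV, a ratio of 1180 between the proteins (95% counting interval 211 to 46700) and at least 118-fold over EV. Wnt7a, which is no member of the list and was named by its fold change, had 386, 254 and 252 counts in YAP5SA and a single count in YAP-TFE3, also a ratio of 1180 (211 to 46500). Wnt9a was above EV with both proteins and highest in YAP5SA (19.0 ± 3.47, 80.3 ± 9.72 and 7.95 ± 1.67 CPM; -2.08, adjusted p = 7.02e-09, edgeR). These ligands were thus high where Sfrp1 and Fzd4 were low.

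Chemokines and secreted cytokines had 13 higher and 4 lower of 24 in YAP-TFE3, with a median of 1.27. For Cxcl12, Spp1 and Ccl2 the level was below EV with both proteins. Cxcl12, which guides leukocytes and stem cells through CXCR4, had 345, 280 and 372 CPM in YAP-TFE3, 41.8, 50.9 and 50.9 CPM in YAP5SA and 775, 1130 and 906 CPM in EV. The 3 groups were separate with YAP-TFE3 in the middle (2.80, SE 0.30, adjusted p = 4.09e-08, edgeR). Spp1, the matricellular cytokine osteopontin, had the same order at 535, 543 and 793 CPM, 29.1, 15.7 and 34.8 CPM and 1490, 2290 and 1860 CPM (4.56, SE 0.41, adjusted p = 3.17e-09, edgeR). Ccl2, which attracts monocytes, was at 55.3 ± 16 CPM in YAP-TFE3, 2.63 ± 1.33 CPM in YAP5SA and 107 ± 48.7 CPM in EV (4.38, adjusted p = 2.09e-09, edgeR). Il6 differed from these in being above EV in YAP-TFE3 and not in YAP5SA, at 3.91, 2.48 and 1.32 CPM against 0.257, 0.0981 and 0.443 CPM, with EV at 0.0844, 0.525 and 0.0442 CPM (3.30, SE 0.59, adjusted p = 3.49e-05, edgeR).

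Because the fusion protein carries the DNA-binding domain of TFE3, lysosomal and autophagy genes were examined as a list. They did not move in a single direction. Of 52 lysosomal genes tested, 18 were higher and 17 lower in YAP-TFE3 than in YAP5SA, with a median of -0.01. These shares of 34.6% and 32.7% were near those of all genes. With library totals alone 27 were higher and 10 lower with a median of 0.35, where the median over all genes was 0.41. Against EV, 7 were higher and 2 lower in YAP-TFE3, with a median of 0.03, and 22 were higher and 19 lower in YAP5SA, with a median of 0.26. Of all genes, 10.6% were higher and 4.74% lower than EV in YAP-TFE3, and 36.3% higher and 34.9% lower in YAP5SA. The E-box CACGTG, searched on both strands, was found for 13 of 41 lysosomal genes with a promoter (31.7%), against 9.76% of tested genes and 6.86% of all genes with a promoter. Ctsk, a protease that degrades collagen, stood at 59.0, 42.7 and 50.2 CPM in YAP-TFE3, 3.75, 3.53 and 3.86 CPM in YAP5SA and 30.5, 48.5 and 31.7 CPM in EV. It was low in YAP5SA alone (3.77, SE 0.21, adjusted p = 4.08e-12, edgeR). Gm2a, the activator of GM2 ganglioside degradation, had 18.8, 14.9 and 19.3 CPM in YAP-TFE3, 92.2, 85.2 and 82.5 CPM in YAP5SA and 18, 19.1 and 19.5 CPM in EV, high in YAP5SA alone (-2.30, SE 0.14, adjusted p = 1.75e-11, edgeR). The V-ATPase, the proton pump of lysosomes, had 1 subunit higher and 12 lower of 19 (median -0.38, and -0.02 with library totals alone), among them Tcirg1 (50.2 ± 5.09 against 141 ± 3.13 CPM; -1.48, adjusted p = 2.2e-08, edgeR).

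Autophagy and feedback genes of the MiT/TFE family had 14 higher and 18 lower of 41, with a median of -0.27 that became 0.09 with library totals alone. Rragd, a Rag GTPase known as a MiT/TFE target, had 13.5, 8.41 and 9.21 CPM in YAP-TFE3, 0.411, 0.638 and 0.443 CPM in YAP5SA and 7.30, 5.06 and 7.43 CPM in EV. It was above EV in YAP-TFE3 (0.65, adjusted p = 0.0456, edgeR) and below EV in YAP5SA, with a direct log2 fold change of 4.35 (SE 0.30, adjusted p = 6.1e-11, edgeR). Mitf, a family member, was at 44.1 ± 3.65 CPM in YAP-TFE3 and 4.05 ± 0.798 CPM in YAP5SA (3.45, adjusted p = 9.97e-11, edgeR). Gpnmb, a glycoprotein used as a marker of MiT/TFE activity, was below EV with both proteins. It had 9.98, 14.7 and 27.0 CPM in YAP-TFE3, 3.23, 2.70 and 3.04 CPM in YAP5SA and 71.2, 51.9 and 67.7 CPM in EV (2.53, SE 0.30, adjusted p = 1.67e-07, edgeR). The autophagy receptor Sqstm1 was lower in YAP-TFE3 (687 ± 48.7 against 1240 ± 86.9 CPM; -0.85, adjusted p = 0.000162, edgeR), and Atg9b, which overlaps Nos3, was at 0.201, 0.268 and 0.127 CPM in YAP-TFE3 and 53.7, 28.3 and 31.4 CPM in YAP5SA (-7.50, SE 0.47, adjusted p = 1.78e-11, edgeR).

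Cholesterol synthesis was a program on which both proteins were below EV. In YAP-TFE3 18 of 24 genes were lower and none higher than EV (edgeR; 0 higher also by DESeq2 and at an unadjusted p under 0.05), with a median of -0.88, and in YAP5SA 16 were lower and 5 higher, with a median of -0.90. Between the proteins 4 were higher and 8 lower in YAP-TFE3 and 12 were not called, with a median of 0.09. The direction was not stable. Library totals alone gave 9 higher and 5 lower with a median of 0.45, where the median over all genes was 0.41. Taking out length and GC content gave 2 higher and 9 lower with a median of -0.17, where that over all genes was -0.11. Differences were found for single steps. Fdft1, squalene synthase, had 67.3, 105 and 102 CPM in YAP-TFE3, 365, 262 and 343 CPM in YAP5SA and 144, 194 and 179 CPM in EV. It was below EV in YAP-TFE3 and above EV in YAP5SA (-1.82, SE 0.22, adjusted p = 1.74e-07, edgeR), and it overlaps Ctsb.

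Genes of the cell cycle were mixed. Of 46 genes of DNA replication 15 were higher (32.6%) and 11 lower (23.9%) in YAP-TFE3 (median 0.30; 25 higher, 6 lower and a median of 0.65 with library totals alone). Of 42 genes of G2 and mitosis 4 were higher and 11 lower (median -0.23, 0.13 with library totals alone, and -0.49 with 16 lower when length and GC content were taken out). Against EV no gene of either list was called in YAP-TFE3 by edgeR or by DESeq2, and at an unadjusted p under 0.05 in edgeR 3 replication genes and 1 mitotic gene were higher and 0 lower. For the mitotic list EV replicate 2 stood apart, with summed levels of 743, 1530 and 785 CPM in the EV libraries. The YAP-TFE3 libraries had 1310, 1430 and 1140 CPM, and the median log2 fold change over EV was 0.36. The replication list was also highest in EV replicate 2, at 1360, 1790 and 1410 CPM, against 1510, 1570 and 1570 CPM in YAP-TFE3. How far that library kept genes from being called was not tested. In YAP5SA 18 mitotic genes were above EV and none below (edgeR; 0 below also by DESeq2 and at an unadjusted p under 0.05). Pttg1, the securin that holds sister chromatids together, had 11, 12 and 10.6 CPM in YAP-TFE3, 40.8, 38.0 and 41.3 CPM in YAP5SA and 9.79, 11.7 and 9.87 CPM in EV, high in YAP5SA alone (-1.84, SE 0.24, adjusted p = 7.55e-07, edgeR). The opposite was seen for Pola1, the catalytic subunit of DNA polymerase alpha (37.3 ± 4.05 against 5.74 ± 1.31 CPM; 2.69, adjusted p = 5.27e-06, edgeR), and for the clamp Pcna (78.9 ± 4.95 against 42.3 ± 4.95 CPM; 0.90, adjusted p = 0.000482, edgeR). The 4 mitotic genes that were higher in YAP-TFE3 were not called without YAP-TFE3 replicate 2, YAP5SA replicate 1 or YAP5SA replicate 2, and none was called with length and GC content taken out. The regulators stood out more. Cdkn1a (17:29090976-29100727), the inhibitor p21, had 106, 87.3 and 91.0 CPM in YAP-TFE3, 1290, 1020 and 1040 CPM in YAP5SA and 60.2, 44.2 and 48.0 CPM in EV. All 3 groups were separate (-3.56, SE 0.27, adjusted p = 3.27e-10, edgeR). Myc was at 40.2 ± 7.21 CPM in YAP-TFE3, 138 ± 6.25 CPM in YAP5SA and 51.2 ± 7.41 CPM in EV (-1.77, adjusted p = 2.19e-09, edgeR). Cyclin D1 (Ccnd1) was not called (52.5 ± 12.2 against 40.1 ± 10.8 CPM; 0.39, adjusted p = 0.33, edgeR).

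Contractile genes, which YAP and serum response factor are known to drive, had 10 higher and 19 lower of 36 in YAP-TFE3 (median -0.48; 12 lower and a median of -0.13 with library totals alone). Acta2 (ENSMUSG00000035783, 19:34241090-34255590), the smooth muscle actin of myofibroblasts, ran against the list. It stood at 1890, 1160 and 1090 CPM in YAP-TFE3, 187, 159 and 152 CPM in YAP5SA and 321, 212 and 317 CPM in EV. YAP-TFE3 was above EV (2.28, adjusted p = 3.63e-07, edgeR) and YAP5SA below it (-0.77, adjusted p = 0.00355, edgeR), and the direct log2 fold change was 3.06 (SE 0.24, adjusted p = 3.39e-10, edgeR). Tagln, a calponin-like protein of the same cells, differed the other way, at 47.6, 50.2 and 40.6 CPM in YAP-TFE3, 169, 156 and 180 CPM in YAP5SA and 69.4, 35.4 and 66.5 CPM in EV (-1.87, SE 0.28, adjusted p = 4.32e-06, edgeR). These markers of the contractile fibroblast thus did not vary together. Filamin C (Flnc), a crosslinker of actin, was lower in YAP-TFE3 (643 ± 78.3 against 3270 ± 656 CPM; -2.35, adjusted p = 1.44e-10, edgeR), while the myosin light chain Myl9 (6.28 ± 1.61 against 0.503 ± 0.0390 CPM; 3.62, adjusted p = 1.71e-09, edgeR) and leiomodin Lmod1 (9.18 ± 3.04 against 0.905 ± 0.328 CPM; 3.32, adjusted p = 4.83e-07, edgeR) were higher.

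Integrins and focal adhesion genes had 16 higher and 14 lower of 34 (median 0.07). The median was 0.43 (19 higher and 9 lower) with library totals alone and -0.21 (16 higher and 17 lower) with length and GC content taken out. Itga8, the alpha chain of a nephronectin receptor, had 77.9, 66.6 and 52.5 CPM in YAP-TFE3, 1.49, 3.29 and 2.28 CPM in YAP5SA and 46.6, 71.2 and 49.5 CPM in EV, low in YAP5SA alone (4.79, SE 0.33, adjusted p = 6.1e-11, edgeR). Itgb4, the hemidesmosome integrin of epithelia, had 1.81, 0.737 and 1.23 CPM in YAP-TFE3, 16.2, 8.68 and 11.2 CPM in YAP5SA and 0.887, 0.716 and 1.02 CPM in EV, high in YAP5SA alone (-3.29, SE 0.29, adjusted p = 2.55e-09, edgeR). Itgb1, the common beta chain, was above EV in YAP-TFE3 only (1420 ± 232, 806 ± 21 and 906 ± 77.8 CPM; direct log2 fold change 0.82, adjusted p = 5.66e-07, edgeR).

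Growth factor signalling through ERBB receptors and ERK divided by gene. Of 11 ERBB receptors and ligands tested 5 were higher and 4 lower (median -0.08, and 0.28 with library totals alone). Nrg1, a neuregulin, had 21.6, 28.6 and 27.9 CPM in YAP-TFE3, 102, 114 and 122 CPM in YAP5SA and 33.8, 40.4 and 32.3 CPM in EV, highest in YAP5SA (-2.11, SE 0.17, adjusted p = 6.05e-10, edgeR). Its receptor Erbb3 was at 0.903, 0.234 and 0.212 CPM in YAP-TFE3 and 3.18, 2.65 and 2.22 CPM in YAP5SA (-2.66, SE 0.54, adjusted p = 0.000141, edgeR). The ligand Hbegf was above EV with both proteins and higher in YAP5SA (6.82 ± 0.836, 23.5 ± 0.654 and 3.18 ± 1.13 CPM; -1.79, adjusted p = 9.82e-07, edgeR), while Ereg, epiregulin, was higher in YAP-TFE3 (24.7, 11.8 and 11.4 against 4.98, 3.88 and 4.63 CPM; 1.82, SE 0.37, adjusted p = 0.000169, edgeR). ERK feedback genes had 12 higher and 10 lower of 24 (median 0.39). Egr2, an immediate early zinc finger factor, had 4.46, 8.84 and 7.47 CPM in YAP-TFE3, 0.103, 0.0981 and 0.0634 CPM in YAP5SA and 15.5, 12.7 and 12.6 CPM in EV. It was below EV with both proteins and close to absent in YAP5SA (6.20, SE 0.51, adjusted p = 7.47e-10, edgeR). The inhibitor Spry2 was at 28.8 ± 0.132 CPM in YAP-TFE3 and 7.15 ± 0.558 CPM in YAP5SA (2.01, adjusted p = 3.27e-11, edgeR). The phosphatase Dusp4 was lower in YAP-TFE3 (28.8 ± 7.27 against 135 ± 19.7 CPM; -2.23, adjusted p = 2.36e-07, edgeR), and Dusp6, often read as a measure of ERK output, was not called (0.11, adjusted p = 0.722, edgeR).

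AP-1 factors, which share many enhancers with TEAD, had no member higher and 8 lower of 11 in YAP-TFE3 (edgeR; 0 higher also by DESeq2 and at an unadjusted p under 0.05), with a median of -0.68. With library totals alone 3 were higher and 5 lower. Atf3 had 4.31, 4.49 and 4.63 CPM in YAP-TFE3, 29.0, 34.9 and 28.8 CPM in YAP5SA and 5.32, 3.92 and 5.04 CPM in EV, at the EV level in YAP-TFE3 and above it in YAP5SA (-2.79, SE 0.19, adjusted p = 3.8e-11, edgeR). The small Maf protein Mafk was above EV with both proteins and higher in YAP5SA (43.0 ± 7.89, 148 ± 8.53 and 25.8 ± 4.28 CPM; -1.79, adjusted p = 4.23e-08, edgeR), and Fosl1 differed less (10.2 ± 3.81 against 25.4 ± 5.67 CPM; -1.30, adjusted p = 0.000915, edgeR). Jun was not called (108 ± 26.0 against 80.6 ± 8.93 CPM; 0.43, adjusted p = 0.101, edgeR), and by upper quartile scaling, library totals, the 2 groups alone and 3 further alternatives it was called as higher in YAP-TFE3.

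**Figure D5:**
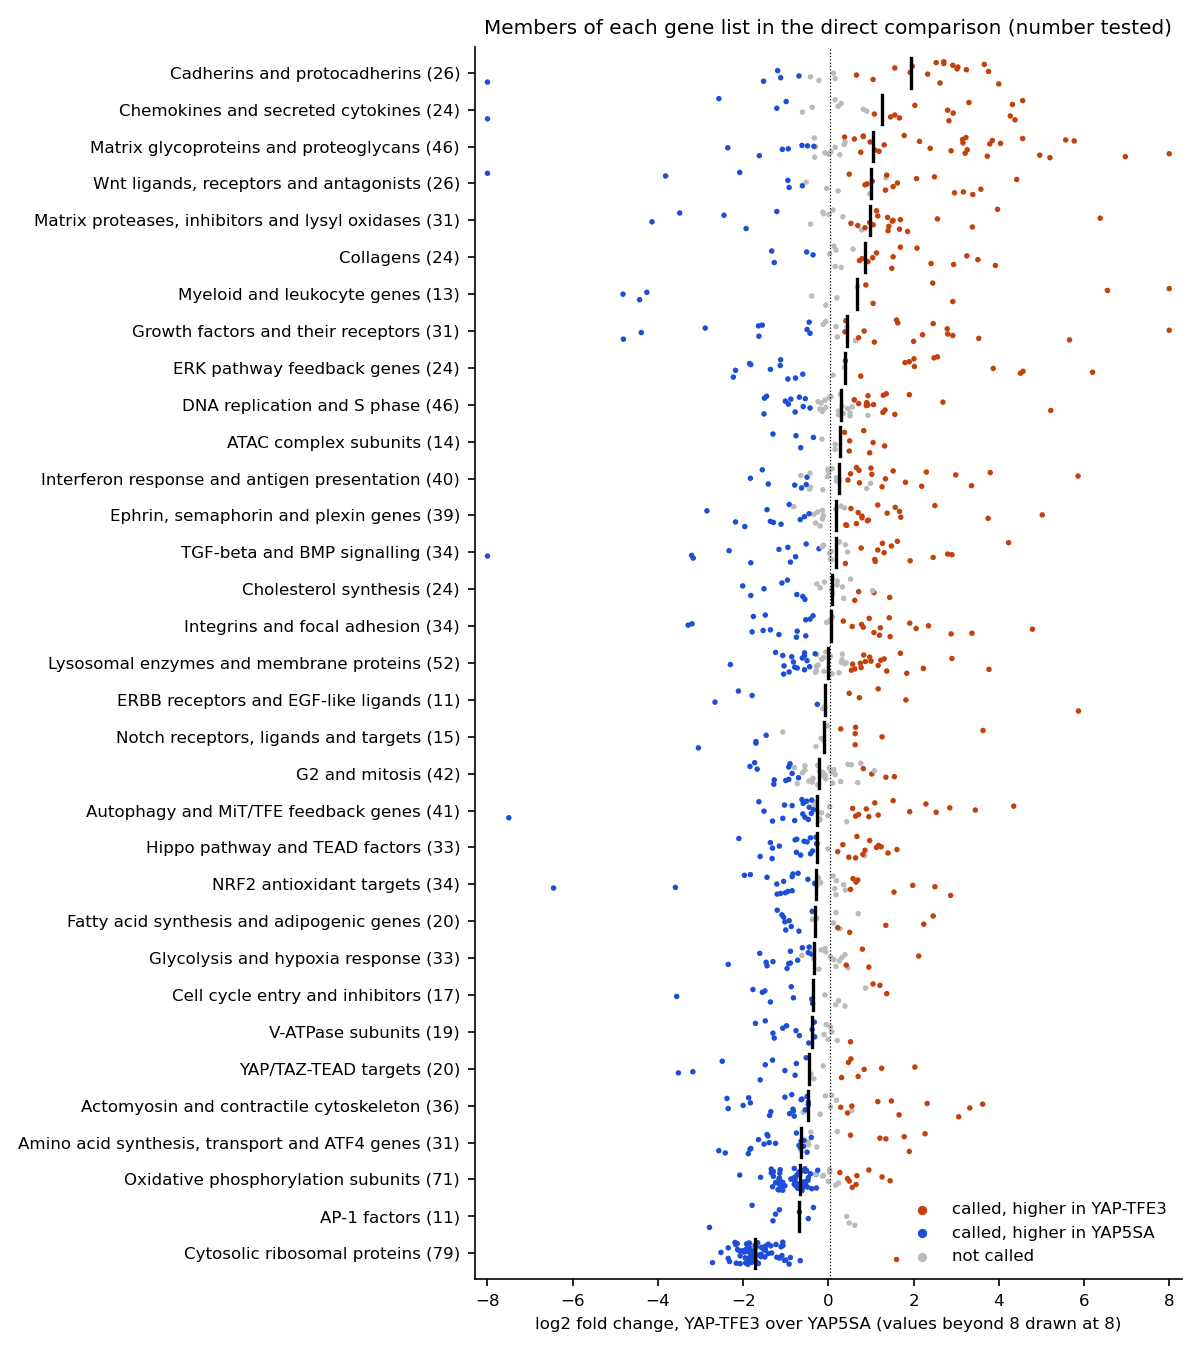
Log2 fold change of YAP-TFE3 over YAP5SA (horizontal axis, values beyond 8 drawn at 8) for the tested members of the 33 gene lists (rows, with the number tested), coloured by whether the gene was called higher in YAP-TFE3, higher in YAP5SA or not called, with a bar at the median. The medians run from 1.94 for cadherins and 1.27 for chemokines to -0.68 for AP-1 factors and -1.73 for ribosomal proteins.

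Of the remaining lists, TGF-beta and BMP signalling had 14 higher and 11 lower of 34 in YAP-TFE3 (median 0.17). Its largest named differences were those of the activin antagonist Fst (1.55, 3.52 and 2.93 CPM against 20.6, 26.1 and 26.4 CPM, with EV at 1.01, 0.382 and 0.354 CPM; -3.17, SE 0.34, adjusted p = 3.9e-08, edgeR) and of the activin subunit Inhba (5.04 ± 1.02 against 25.4 ± 2.99 CPM; -2.33, adjusted p = 2.63e-05, edgeR), both above EV with either protein. Notch genes had 6 higher and 4 lower of 15 (median -0.11, and 0.26 with library totals alone), with the ligand Jag1 lower in YAP-TFE3 (34.1 ± 9.47 against 110 ± 7.91 CPM; -1.70, adjusted p = 1.94e-06, edgeR). Interferon and antigen presentation genes had 17 higher and 7 lower of 40 (median 0.26), among them the nuclear body protein Sp100 (33, 13.5 and 12.2 against 1.23, 1.67 and 1.27 CPM, with replicate 1 of YAP-TFE3 the highest; 3.80, SE 0.33, adjusted p = 1.46e-09, edgeR). Ephrin, semaphorin and plexin genes had 17 higher and 11 lower of 39 (median 0.18), and the receptor Epha2 was lower in YAP-TFE3 (18.1 ± 3.87 against 82.3 ± 16.1 CPM; -2.18, adjusted p = 4.43e-07, edgeR). Fatty acid and adipogenic genes had 5 higher and 9 lower of 20 (median -0.32, and 0.04 with library totals alone). Regulators of cell cycle entry had 3 higher and 9 lower of 17 (median -0.37; 6 higher, 7 lower and a median of -0.01 with library totals alone).

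Subunits of the ATAC complex, a histone acetyltransferase complex, had 7 higher and 4 lower of 14 (median 0.27). Against EV 1 was lower and none higher in YAP-TFE3 (edgeR; 0 higher also by DESeq2 and at an unadjusted p under 0.05). Kat2b, a catalytic subunit, was higher in YAP-TFE3 (68.0, 67.3 and 62.8 CPM against 26.0, 28.7 and 24.8 CPM, with EV at 55.8, 64.9 and 55.5 CPM; 1.32, SE 0.18, adjusted p = 7.49e-07, edgeR), and the scaffold Wdr5 was lower (48.0, 52.9 and 55.8 CPM against 131, 128 and 127 CPM, with EV at 62.1, 64.9 and 60.0 CPM; -1.30, SE 0.12, adjusted p = 3.24e-09, edgeR). Against EV neither was called in YAP-TFE3 (0.17, adjusted p = 0.576 for Kat2b and -0.25, adjusted p = 0.161 for Wdr5, edgeR), although the Wdr5 libraries of YAP-TFE3 lay below those of EV.

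Some genes were detected, or were far higher, with a single protein. Cyp11b1, the adrenal 11-beta-hydroxylase, had 4189, 2365 and 1380 counts in YAP-TFE3 and 0 in every YAP5SA and EV library. It overlaps Gml2, with which reads may be shared. Lyz2 (10:117277331-117282321), the lysozyme of myeloid cells, had 240, 113 and 128 CPM in YAP-TFE3, 0.719, 0.245 and 0.507 CPM in YAP5SA and 0.169, 0.382 and 0.619 CPM in EV. YAP5SA was at the EV level (direct log2 fold change 8.35, SE 0.42, adjusted p = 1.02e-12, edgeR). Of 13 myeloid and leukocyte genes tested, 6 were higher, Lyz2 among them, and 3 were lower in YAP-TFE3. Csf1r, the receptor of macrophage growth factor, had 1.45, 1.21 and 1.61 CPM in YAP-TFE3, 53.4, 30.4 and 36.1 CPM in YAP5SA and 0.633, 0.477 and 0.796 CPM in EV (-4.82, SE 0.37, adjusted p = 2.98e-10, edgeR), and Cd68, a lysosomal glycoprotein of macrophages, was at 3.08 ± 0.591, 66.9 ± 17.7 and 3.18 ± 0.600 CPM (-4.43, adjusted p = 2.93e-09, edgeR). Leukocyte genes such as Ptprc stayed below the count minimum.

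Further genes near absent in YAP5SA were Tph1, tryptophan hydroxylase, with 246, 187 and 111 counts in YAP-TFE3 and 0 in YAP5SA (at least 47.5-fold), and Ankrd29 with 213, 152 and 89 counts against 0 (at least 39.8-fold). The bile pigment exporter Abcc2 had 213, 167 and 99 counts in YAP-TFE3 and a single count in YAP5SA, a ratio of 363 (95% counting interval 64.9 to 14400). All of these were highest in YAP-TFE3 replicate 1 and had at most 1 count in any EV library. Speer4a differed from them, since its 210, 183 and 219 counts in YAP-TFE3 were like the 264, 126 and 311 counts of EV, while YAP5SA had a single count, a ratio of 464 (83.0 to 18400). It belongs to a family of close copies, so its counts are uncertain.

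In the other direction, Upk1b (16:38773184-38800328), a tetraspanin of the urothelium, had 25, 16 and 3 counts in YAP-TFE3, 7945, 6148 and 4507 counts in YAP5SA and 0, 1 and 0 in EV. Both proteins were above EV and the direct log2 fold change was -9.08 (SE 0.41, adjusted p = 2.13e-13, edgeR). Vip, a neuropeptide, had 263, 192 and 148 counts in YAP5SA and 0 in every other library used here, at least 85.4-fold over YAP-TFE3. Pax8, a factor of kidney and thyroid development, had 296, 179 and 123 counts in YAP5SA and 1, 0 and 0 in YAP-TFE3, a ratio of 788 (95% counting interval 141 to 31200). Tnnt3, a troponin of fast muscle, was at 11.8, 46.6 and 14.6 CPM in YAP5SA and 0.0501, 0.1 and 0.212 CPM in YAP-TFE3, with replicate 2 of YAP5SA far above the others (-7.57, SE 0.70, adjusted p = 4.45e-09, edgeR). These genes belong to unrelated tissues, and the defining markers of muscle, Myod1 and Myog, were below the count minimum.

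A last set moved to opposite sides of EV. Arxes2, an adipocyte gene with the near-identical neighbour Arxes1, had 61.1, 33.2 and 34.9 CPM in YAP-TFE3, 0.873, 0.785 and 0.697 CPM in YAP5SA and 7.68, 7.11 and 7.12 CPM in EV. It was above EV in YAP-TFE3 (2.56, adjusted p = 1.32e-07, edgeR) and below in YAP5SA (-3.20, adjusted p = 6.52e-09, edgeR), with a direct log2 fold change of 5.76 (SE 0.31, adjusted p = 2.09e-12, edgeR). Reads could be split between the 2 copies, and Arxes1 had the same order at 22.1 ± 9.37, 0.276 ± 0.209 and 1.56 ± 0.0836 CPM. Ggt5, which cleaves leukotrienes, had 171, 77 and 55 counts in YAP-TFE3, 0 in YAP5SA and 4, 19 and 4 in EV, at least 27.5-fold higher in YAP-TFE3 than in YAP5SA. The lipid transporter Abca8a had 16.7, 2.44 and 4.50 CPM in YAP-TFE3, 0.0513, 0.0491 and 0.127 CPM in YAP5SA and 0.507, 1.38 and 0.841 CPM in EV (direct log2 fold change 6.65, SE 0.84, adjusted p = 3.88e-07, edgeR), with replicate 1 of YAP-TFE3 well above the others.

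Genes below EV in YAP-TFE3 and above EV in YAP5SA included Igf2 and Fdft1, given above. Aqp5, a water channel, had 1.20, 1.67 and 2.29 CPM in YAP-TFE3, 28.4, 20.1 and 17.9 CPM in YAP5SA and 3.46, 2.77 and 3.98 CPM in EV (-3.67, SE 0.30, adjusted p = 8.34e-10, edgeR). Il1rl1, the receptor of interleukin 33 and a growth-induced gene of fibroblasts, stood at 145, 370 and 390 CPM in YAP-TFE3, 873, 1060 and 1270 CPM in YAP5SA and 542, 780 and 610 CPM in EV. Its groups were separate, with replicate 1 of YAP-TFE3 the lowest library (-1.82, SE 0.27, adjusted p = 4.03e-06, edgeR). Acot1, which hydrolyses fatty acyl-CoA, had the same order at 14.2 ± 4.58, 44.3 ± 1.6 and 24.2 ± 4.45 CPM (-1.64, adjusted p = 5.08e-08, edgeR).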

How the data were processed

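Poly(A) RNA of NIH 3T3 lines was sequenced as paired-end reads, and the authors deposited one table of raw read counts per Ensembl gene for each library, with no normalization. The submitters' processing notes name bcl2fastq and the build mm10, and the study's methods name a stranded TruSeq kit, bcbio-nextgen, alignment with Hisat2, and Salmon with tximport for gene-level counts. The deposited values are whole numbers, and whether they came from the alignments or from tximport, and with which strand setting, is not given in the sources used here, so overlapping and antisense genes and near-identical copies are uncertain. The 3 replicates of a group are separately transduced lines, and no pair of libraries agreed within sampling noise.

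Identifiers were named from GENCODE release 21 of the mouse annotation, which matched 37693 of 39017. Genes whose count averaged 5 or more in the 24 libraries were fitted in edgeR 4.0.16 (R 4.3.3) with TMM scaling, a group term and all 24 libraries sharing the estimate of spread, and pairs of groups were compared with the quasi-likelihood test and Benjamini-Hochberg adjustment over 14361 genes at 0.05. Levels are means ± SD of CPM over 3 libraries. A gene at 0 in every library of a group was set against a floor of 3 counts in each library, and a gene with 1 to 3 counts in a group has a ratio with its 95% exact counting interval, which covers counting error only. On simulated counts for 14361 genes of which 200 were changed, this comparison found 144 of those changed by a log2 value of 1 (8 unchanged genes were also called) and 185 of those changed by 2 (13 unchanged genes). Total counts were at least 19055901 per library.

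Genes named in the text are Yap1, Tfe3, Ccn1, Ccn2, Fras1 and Erbb3, the 10 largest rises and falls and the 5 with the largest CPM differences each way among called protein-coding genes, the 5 of each pattern opposite to EV, and key members with the 2 largest rises and falls of each list, of which a part is printed. Some of the genes that this rule names are not reported here. The genes compared, the 33 lists and the marker lists were chosen with earlier results of these data known. Lists are described by counts and medians, to be read against the percentage of all genes called.

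Alternatives were DESeq2 1.42.0, RLE and upper quartile scaling, no filter, a mean of at least 50 counts, a replicate block, the 2 groups alone, a 2-fold minimum and each replicate left out. Library totals alone and an offset for GC content and transcript length were added after the data were seen. Promoters came from RefSeq on GRCm38.p6, the build of mm10.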

Additional observations from a re-analysis of the deposited data

How the results depend on the processing

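DESeq2, RLE scaling and the replicate block gave every one of the 137 genes printed for the direct comparison the same direction and side of the threshold, and in the replicate block 5181 genes were higher and 4929 lower in YAP-TFE3 than in YAP5SA. Replicate numbers did not pair the libraries (correlations of deviations of 0.11, 0.0461 and -0.00601 for the same numbers of YAP-TFE3 and YAP5SA, where YAP-TFE3 replicates 2 and 3 correlated better with another number). The number of YAP-TFE3 replicate 3 is from its title, while its description gives replicate 2, so the block and what is said of these replicates rest on the title, and the block moved none of the counts against EV by over 1.5 times. None of the printed genes reversed under any alternative, and 14 of them could not be fitted at a mean of at least 50 counts. With the GC content and length offset 2 of them lost their call, Yap1 among them, and 2 gained a call. A call was lost for 1 gene without YAP-TFE3 replicate 3 and for 10 genes with the 2-fold minimum. With a 2-fold minimum the counts were 3184 higher and 2422 lower between the proteins, 737 and 140 for YAP-TFE3 over EV, and 2676 and 3007 for YAP5SA over EV, by the construction of that limit. With the GC content and length offset, added after the data were seen, 2095 genes were lower in YAP-TFE3 than in EV and the cause was not tested. Leaving out a replicate gave 847 to 1516 genes higher and 286 to 750 lower in YAP-TFE3 than in EV, the lowest without YAP-TFE3 replicate 1, with 402 lower without EV replicate 1 and 365 without EV replicate 3. Between the proteins it gave 4895 to 5058 higher and 4630 to 4783 lower, and for YAP5SA over EV 4868 to 4991 and 4708 to 4810. Of the 33 list medians, 9 changed sign with library totals alone, also added after the data were seen, 2 with the GC content and length offset, 2 with upper quartile scaling, 1 without a filter, 1 at a mean of at least 50 counts, and up to 3 when a library was left out (3 without YAP-TFE3 replicate 3, 2 without YAP-TFE3 replicate 2, 2 without YAP5SA replicate 2 and 1 without YAP5SA replicate 1). Cdh2 was called only with that offset (-0.44).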

Other observations

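Below the count minimum, 10376 gene identifiers had at least 1 count in some library and were not compared. Cell types other than fibroblasts gave a few further values. Markers of cartilage and bone summed to 75.5 to 108 CPM in YAP-TFE3, 41.8 to 55.3 CPM in YAP5SA and 146 to 197 CPM in EV, with Col2a1 and Acan below the minimum. Endothelial markers summed to 8.28 to 13.1 CPM in YAP-TFE3, 7.67 to 8.83 CPM in YAP5SA and 2.91 to 4.91 CPM in EV. Skeletal muscle markers summed to 1.4 to 2.66 CPM in YAP-TFE3 and 16.1 to 49.5 CPM in YAP5SA, and neural and Schwann cell markers to 6.97 to 9.68 CPM and 6.38 to 9.95 CPM. The adipocyte list did not exceed 1.82 CPM in any library of these groups.

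The letters of the AP-1 motif (TGACTCA or TGAGTCA, both strands) were found for 5 of 15 chemokine and cytokine genes with a promoter (33.3%), against 4.12% of tested genes and 5.16% of all genes with a promoter. Only 15 of the 24 tested members of that list had a promoter window. The share was the highest of the 33 lists for this motif, so it is an extreme among many. It is a description of the windows, and no test was made of it.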
